A study of Mus musculus with 6 samples.

Results

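The genes described here are the integrins, the laminin chains and 4 basement membrane partners of laminin, in adipocytes grown in culture from 3 mouse fat depots. They were chosen by symbol from the deposited count table. The choice took every integrin alpha and beta chain except the white blood cell alpha chains Itgam, Itgax, Itgal, Itgae and Itgad, every laminin chain, the nidogens Nid1 and Nid2, perlecan (Hspg2) and agrin (Agrn). This gave 36 of the 20295 genes in the table, namely 21 integrins (13 alpha and 8 beta chains), 11 laminin chains and the 4 others. The beta chain Itgb2, which pairs with Itgam, Itgax, Itgal and Itgad, matched the rule and was kept.

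Cultured adipocytes came from brown fat (BAT, pooled interscapular, cervical and axillary depots), epididymal white fat (eWAT) and inguinal white fat (iWAT), with 2 libraries for each depot and 6 in all. The mice were male NMRI animals 4 to 5 weeks old with no allele named, and cells of the stromal-vascular fraction, the mixture left once mature fat cells are removed, were differentiated in culture. Every culture received 1 µM rosiglitazone and 30 nM insulin in medium with 10% serum of newborn calves (rosiglitazone is an activator of the adipogenic receptor Pparg), and was harvested 8 days after plating, although the column names of the count table carry a day 7 tag. Only cultures with more than 50% differentiated cells were used, so other cells of the stromal-vascular fraction can remain, and the labels do not state that the replicates came from separate animals. All p-values therefore measure the spread between these libraries, which may be technical.

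Integrins are receptors made of 1 alpha and 1 beta chain that tie the cell surface to the surrounding matrix and pass signals both ways. Laminins are cross-shaped trimers of an alpha, a beta and a gamma chain that form the sheet of the basement membrane, which nidogens and heparan sulfate proteoglycans such as perlecan and agrin link to a network of type IV collagen. In fat tissue each mature adipocyte is wrapped in such a basement membrane, while the fibroblast-like precursor lies in a looser fibrillar matrix.

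Total counts per library ran from 2889038 to 4807449, and 3 counts, the upper limit where none is seen, correspond to 0.634 to 1.15 CPM (counts scaled to library size with trimmed-mean factors). Such limits cover counting error only. The adipocyte markers Adipoq, Fabp4, Pparg, Plin1, Cidec, Lpl, Cd36 and Lipe were present in all libraries, and 0 of these 8 passed the test in any contrast. They summed to 40500 and 53000 CPM in the BAT libraries, 31000 and 36400 in those of eWAT and 35300 and 33400 in those of iWAT. Both BAT sums lay above all others, while the list median log2 difference was -0.08 for BAT minus eWAT and 0.08 for BAT minus iWAT. Brown adipocyte markers summed to 5850 and 10900 CPM in the BAT libraries, 134 and 177 in those of eWAT and 1390 and 1230 in those of iWAT.

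In the fit across all genes, 5 of the 29 members tested were lower in BAT than in eWAT and 0 were higher, where 3.75% of all 11732 tested genes were called lower and 2.71% higher (adjusted p below 0.05). The 5 were the laminin chains Lamc1 and Lama2, the nidogen Nid2, and the integrin chains Itgb2 and Itga4. Nid2 was also lower in BAT than in iWAT, as the only member called in that contrast, where 0.895% of all genes were called lower and 0.145% higher. Between iWAT and eWAT 0 members and 0% of all genes were called. A promoter window was at hand for 24 of the 36 members and for 2 of the 5 called ones, Lama2 and Itga4, whose 250 bases before the RefSeq start (build GRCm38.p6) are shown because each stands for 1 of the patterns described below, a matrix chain low in BAT and an integrin chain high in eWAT. Capitals mark matches to the TATA box letters TATAAA, the CCAAT box letters CCAAT, the GC box letters GGGCGG or the Ets-type letters GAGGAA, searched on either strand. No other match to these 4 was found, and no letters of one overlapped those of another. The Lama2 window is chr10:27616943-27617192 on the minus strand and the Itga4 window chr2:79255176-79255425 on the plus strand.
Lama2: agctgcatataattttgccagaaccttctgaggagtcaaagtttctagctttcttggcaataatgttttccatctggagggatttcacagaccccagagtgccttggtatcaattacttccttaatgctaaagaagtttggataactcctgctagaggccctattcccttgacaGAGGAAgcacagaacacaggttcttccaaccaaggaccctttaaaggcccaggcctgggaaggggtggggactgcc
Itga4: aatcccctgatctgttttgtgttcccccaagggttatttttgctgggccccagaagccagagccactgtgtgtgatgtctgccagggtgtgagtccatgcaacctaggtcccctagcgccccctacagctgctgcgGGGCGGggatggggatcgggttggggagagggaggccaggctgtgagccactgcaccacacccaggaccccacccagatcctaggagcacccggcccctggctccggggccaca

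The Lama2 window held 1 match to GAGGAA, which holds the core bound by Ets-type factors, starting 76 bases before the start site, and the Itga4 window 1 match to GGGCGG, the GC box, starting 114 bases before it. Of all 32851 windows of the same length in that table, 23.3% held GAGGAA, 32.7% GGGCGG, 33.8% CCAAT and 12.4% TATAAA. A match describes letters only, and no binding was measured here.

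Among the laminin chains, 1 of each kind carried nearly all of the signal per counted length in every library. RPKM (here CPM divided by the counted length in kilobases) allow levels of different genes to be set side by side. Lama4, the alpha chain of vascular and fat basement membranes, made up from 92.0% to 95.9% of the summed RPKM of the 5 alpha chains. Lamb1 made up from 83.4% to 90.0% of the beta chains and Lamc1, the gamma chain shared by most laminins, from 91% to 97.3% of the gamma chains. The next chains were Lama2 with 3.7% to 7.43% of the alpha chains and Lamb2 with 8.8% to 13.1% of the beta chains, so the order within each kind was the same in all libraries for the leading 2 alpha and beta chains.

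**Figure D1:**
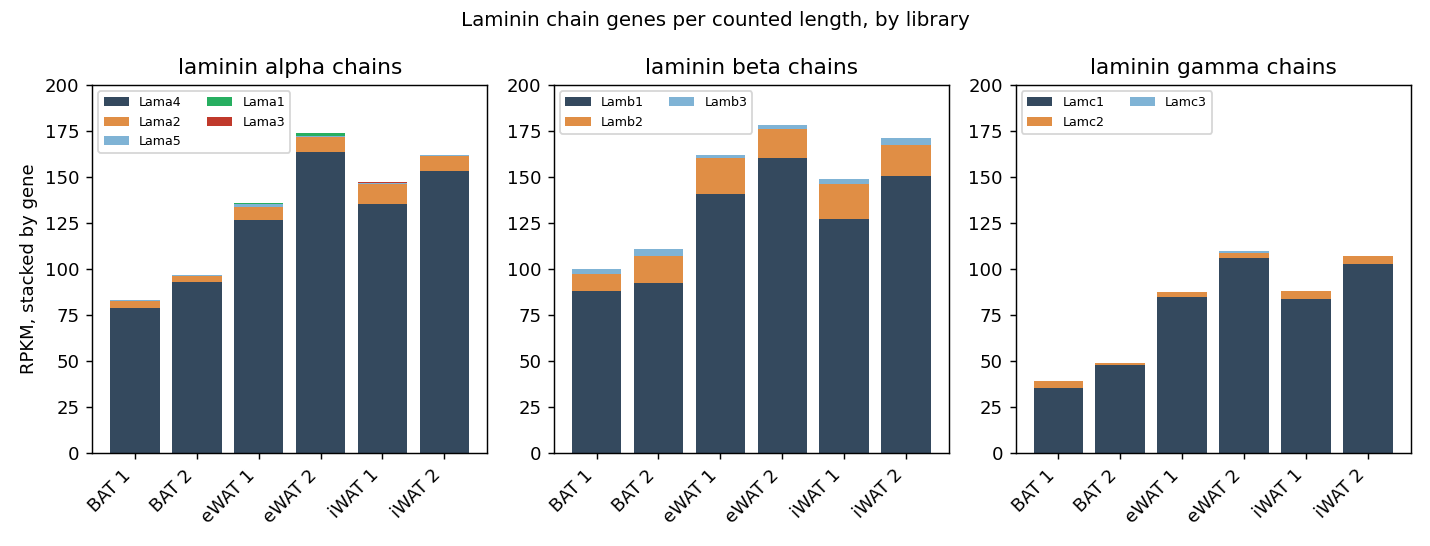
Stacked bars of RPKM for the laminin alpha, beta and gamma chain genes in each of the 6 libraries, with BAT, eWAT and iWAT replicates on the x axis. Lama4, Lamb1 and Lamc1 fill most of every bar, and the summed gamma chains stand at 39.1 and 49.3 RPKM in BAT against 87.5 to 110 in the other libraries.

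Lamc1 stood at 271 and 364 CPM in BAT, against 649 and 810 in eWAT and 640 and 784 in iWAT. Both BAT libraries lay below all 4 white fat libraries, while eWAT and iWAT overlapped. Its log2 difference was -1.20 ± 0.24 (SE) for BAT minus eWAT (edgeR quasi-likelihood test with Benjamini-Hochberg adjustment over 11732 genes, adjusted p = 0.0421) and -1.16 ± 0.24 for BAT minus iWAT (adjusted p = 0.103). DESeq2 called Lamc1 lower in BAT in both contrasts, with adjusted p = 0.000441 and 0.00152. Lama2, the alpha chain of muscle and nerve basement membranes, stood at 35.3 and 34.8 CPM in the BAT libraries, 67.3 and 80.5 in those of eWAT and 106 and 77.2 in those of iWAT. The BAT libraries again lay below all others, and the difference was -1.07 ± 0.22 against eWAT (edgeR adjusted p = 0.0421) and -1.38 ± 0.22 against iWAT (edgeR adjusted p = 0.0515). DESeq2 called the second of these too (adjusted p = 0.000514).

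Lama4 and Lamb1 showed smaller gaps of the same direction that the edgeR test did not call. Lama4 stood at 479 and 561 CPM in BAT, against 766 and 988 in eWAT and 816 and 929 in iWAT. Lamb1 stood at 509 and 533, 812 and 924, and 737 and 866 CPM in the same order. For both genes the BAT libraries were the lowest 2 of the 6. The differences of Lama4 were -0.75 ± 0.22 in both contrasts with BAT (edgeR adjusted p = 0.0921 against eWAT and 0.182 against iWAT), and those of Lamb1 were -0.74 ± 0.19 and -0.62 ± 0.19 (edgeR adjusted p = 0.074 and 0.198). DESeq2 called both genes lower in BAT than in eWAT, with adjusted p = 0.0267 for Lama4 and 0.00964 for Lamb1.

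The fitted differences of Lamc1 were larger in size than those of Lamb1 and Lama4, though this excess was not tested. The ratio of Lamc1 to Lamb1 within a library was lower in BAT. Lamc1 RPKM over Lamb1 RPKM was 0.461 ± 0.0801 (SD, n = 2) in BAT, 0.635 ± 0.0418 in eWAT and 0.672 ± 0.0195 in iWAT, with the highest BAT library at 0.518 and the lowest other library at 0.606. Lama4 RPKM over Lamb1 RPKM was 0.953 ± 0.0753, 0.962 ± 0.0848 and 1.04 ± 0.0238 in the same order, and there BAT and eWAT overlapped. With 2 libraries against 2 no permutation test can reach a small p, so these ratios were not tested.

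Lamb2, a beta chain of muscle and vascular basement membranes, stood at 53.3 and 81.4 CPM in BAT, against 110 and 87.9 in eWAT and 107 and 95.3 in iWAT. Its BAT libraries were the lowest of the 6, but the difference of -0.57 ± 0.25 for BAT minus eWAT was not called (edgeR adjusted p = 0.218). The other laminin chains each stood at 21.9 CPM or below. Lama5, an alpha chain of epithelial and vascular basement membranes, had 4.23 and 2.68 CPM in the BAT libraries, 21.2 and 9.39 in those of eWAT and 9.14 and 6.28 in those of iWAT, and its difference of -2.10 ± 0.52 for BAT minus eWAT was not called by edgeR (adjusted p = 0.0656) but was by DESeq2 (adjusted p = 0.019). Lamb3 was the only laminin chain whose BAT libraries, at 10.8 and 15.7 CPM, both lay above both eWAT libraries, at 5.82 and 8.82 CPM (edgeR adjusted p = 0.234). Lama1, the early embryonic alpha chain, had 6 and 3 counts in BAT, against 17 and 38 in eWAT and 0 and 10 in iWAT. Lama3 and Lamc3 did not pass the filter on low counts.

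The nidogens showed that not every basement membrane gene followed Lamc1 in the contrast of BAT with eWAT. Nid1, the main nidogen, made up from 87.8% to 95.2% of the summed nidogen RPKM. It stood at 803 and 967 CPM in the BAT libraries, 933 and 967 in those of eWAT and 1460 and 1160 in those of iWAT. BAT and eWAT overlapped, with a log2 difference of -0.10 and a 95% interval from -0.63 to 0.42 (edgeR adjusted p = 0.807). Against iWAT both BAT libraries of Nid1 were lower. That difference was -0.57 with a 95% interval from -1.09 to -0.04 and was not called (edgeR adjusted p = 0.272). Nid2 stood at 37.8 and 36.3 CPM in BAT, against 92.5 and 73.4 in eWAT and 103 and 120 in iWAT. Its 2 BAT libraries were nearly equal and the lowest of the 6. Nid2 fell by 1.16 ± 0.19 in BAT against eWAT (edgeR adjusted p = 0.0313), and its difference against iWAT was -1.58 ± 0.19 (edgeR adjusted p = 0.0278). In mm9 the Nid2 gene overlaps the opposite-strand gene 2700060E02Rik by 386 bases, and the counting is not stated to use strand. That neighbour had 53.5 to 64 CPM, with differences of -0.03 and -0.21 in the same 2 contrasts.

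Perlecan (Hspg2), a very large proteoglycan that binds growth factors in the basement membrane, varied more between the libraries of each white depot than Nid1, Nid2 or Agrn did. It stood at 29 and 27.1 CPM in the BAT libraries, 328 and 73.1 in those of eWAT and 289 and 53.8 in those of iWAT. The BAT libraries were the lowest, but replicate 1 of each white depot was far above replicate 2. Its difference of -2.84 ± 0.96 for BAT minus eWAT did not pass (edgeR adjusted p = 0.132), and leaving out 1 eWAT library gave -3.54 (replicate 2) or -1.38 (replicate 1). Agrin (Agrn), best known for organizing the nerve-muscle synapse, stood at 12.7 and 18 CPM in BAT, against 30.1 and 40.4 in eWAT and 28.4 and 24.1 in iWAT. Here too the BAT libraries were the lowest 2 (BAT minus eWAT -1.21 ± 0.28, edgeR adjusted p = 0.0558, DESeq2 adjusted p = 0.0229).

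**Figure D2:**
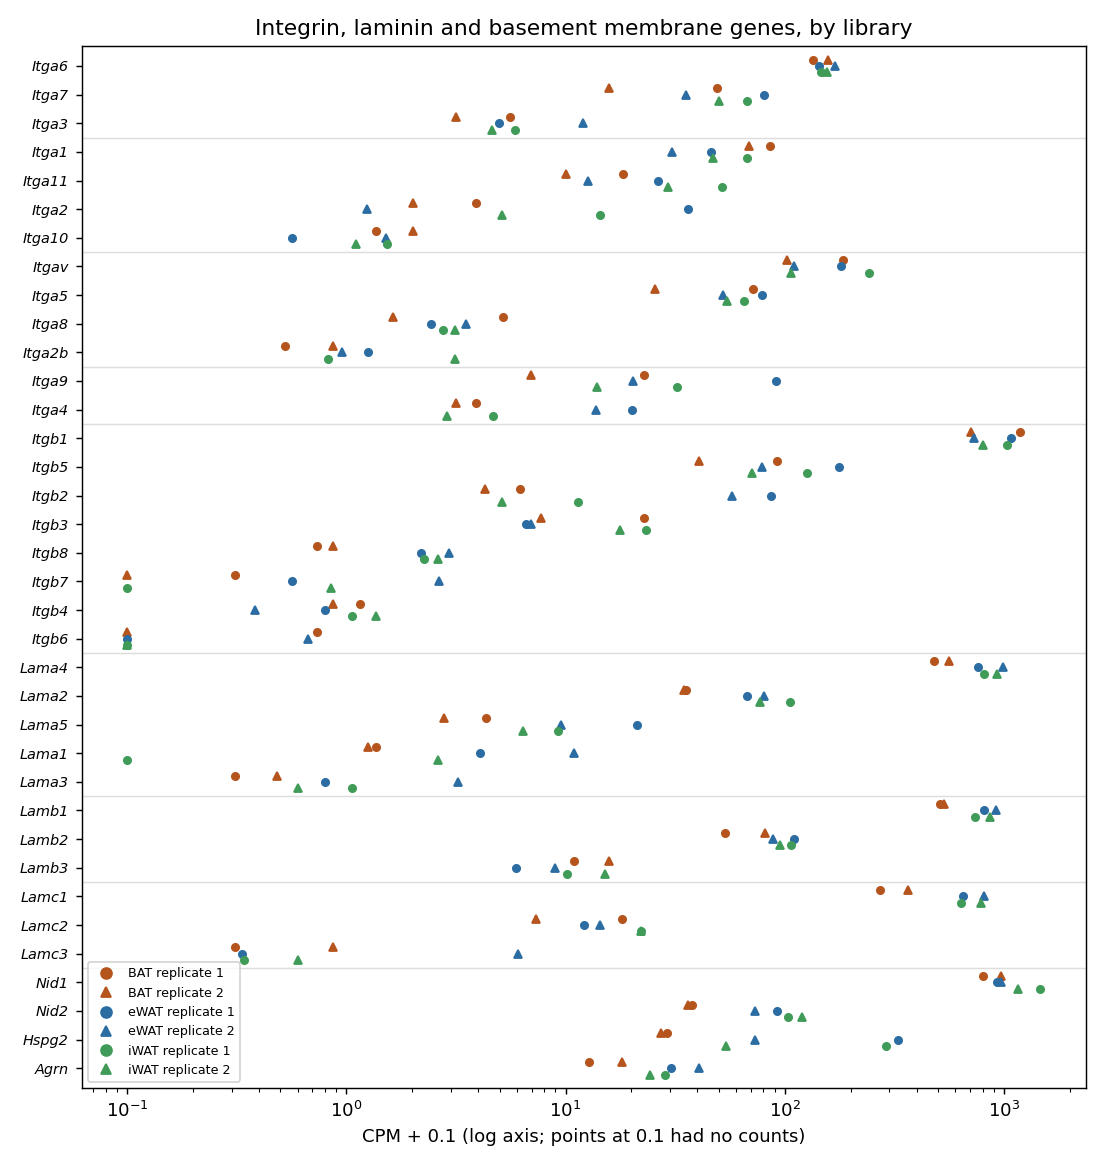
Level of each of the 36 genes in the 6 libraries, as CPM plus 0.1 on a log axis, with 1 row per gene, grouped by role, colours for depots and shapes for replicates. The BAT libraries of Lamc1, Lama2, Lama4, Lamb1, Nid2, Hspg2 and Agrn lie to the left of all eWAT and iWAT libraries, while those of Itga6 and Itgb1 overlap with them.

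Among the integrins, the 4 chains with the highest mean RPKM were Itgb1, Itgb5, Itga6 and Itgav, and none of them was called in any contrast. Itgb1, the beta chain of most matrix-binding integrins, had the highest RPKM of all 21 chains and made up from 75% to 91.6% of the summed beta chain RPKM. It stood at 1180 and 709 CPM in the BAT libraries, 1080 and 733 in those of eWAT and 1030 and 800 in those of iWAT. All 3 depots overlapped, and the BAT minus eWAT difference was 0.06 with a 95% interval from -0.74 to 0.85. Itga6, a laminin-binding alpha chain and partner of Itgb1, had the highest mean RPKM of the alpha chains (24.3 ± 2.69 in BAT, 26 ± 3 in eWAT and 25.1 ± 1.02 in iWAT, SD, n = 2). Its 95% interval for BAT minus eWAT ran from -0.53 to 0.32, which leaves out a difference of 1 on the log2 scale in either direction.

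The other laminin-binding alpha chains were Itga7, the chain of muscle, and Itga3, a chain of epithelia. Itga7 had 49.2 and 15.7 CPM in BAT, against 80.4 and 35.3 in eWAT and 67.4 and 50 in iWAT, and BAT replicate 1 lay within the range of the white fat libraries while BAT replicate 2 lay below it. Itga3 was between 3.06 and 11.9 CPM in all libraries. Neither passed in any contrast.

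Itgav, the alpha chain of the vitronectin receptors, was next to Itga6 in mean RPKM among the alpha chains, with 20.4 ± 8.3 in BAT, 20.6 ± 7.06 in eWAT and 24.8 ± 13.5 in iWAT. Its beta chain partners include Itgb5 and Itgb3. Itgb5 stood at 92.4 and 40.5 CPM in the BAT libraries, 176 and 78.5 in those of eWAT and 127 and 71.1 in those of iWAT, and the depots overlapped (BAT minus eWAT -0.93, with a 95% interval from -2.22 to 0.37). Itgb3 stood at 22.8 and 7.65 CPM in BAT, against 6.52 and 6.83 in eWAT and 23.1 and 17.6 in iWAT. Both iWAT libraries of Itgb3 were above both eWAT libraries, but the difference of 1.60 ± 0.51 for iWAT minus eWAT was not called (edgeR adjusted p = 0.351). The fibronectin receptor chain Itga5 overlapped between all depots, with 25.6 to 78.3 CPM.

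The collagen-binding alpha chain Itga1 was the 1 member that DESeq2 called higher in BAT. It stood at 85.4 and 68.8 CPM in the BAT libraries, 45.9 and 30.4 in those of eWAT and 66.9 and 46.8 in those of iWAT. The BAT libraries were the highest 2 of the 6, and BAT minus eWAT was 1.01 ± 0.28 (edgeR adjusted p = 0.0861, DESeq2 adjusted p = 0.0417). The gene Pelo lies inside Itga1 on the same strand. Itga11, the collagen-binding chain of fibroblasts, stood at 18.2 and 9.94 CPM in BAT, against 26.3 and 12.5 in eWAT and 51.5 and 29.2 in iWAT, so that both iWAT libraries were above all others (BAT minus iWAT -1.49 ± 0.49, edgeR adjusted p = 0.213). Itga2, also collagen-binding, had 155 counts in eWAT replicate 1 and 4 in eWAT replicate 2, and from 5 to 59 in the other libraries.

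The 2 integrin chains called lower in BAT than in eWAT are both found on white blood cells, although bulk libraries do not show which cells they came from. Itgb2, the shared beta chain of the leukocyte integrins, stood at 6.13 and 4.21 CPM in the BAT libraries, 86.2 and 57.2 in those of eWAT and 11.3 and 5.03 in those of iWAT. The eWAT libraries stood apart from all 4 others, and BAT and iWAT overlapped. Its difference was -3.75 ± 0.45 for BAT minus eWAT (edgeR adjusted p = 0.0195) and -3.13 ± 0.43 for iWAT minus eWAT (edgeR adjusted p = 0.0906, DESeq2 adjusted p = 2.69e-07). Itga4, an alpha chain that binds Vcam1 and fibronectin, stood at 3.8 and 3.06 CPM in BAT, against 20 and 13.7 in eWAT and 4.57 and 2.77 in iWAT. It showed the same order, with -2.27 ± 0.41 for BAT minus eWAT (edgeR adjusted p = 0.0361) and -2.19 ± 0.40 for iWAT minus eWAT (edgeR adjusted p = 0.138, DESeq2 adjusted p = 0.0137). Itga4 rests on 8 to 86 counts per library. Between BAT and iWAT the 95% intervals ran from -1.77 to 0.52 for Itgb2 and from -1.14 to 0.99 for Itga4.

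Most markers of macrophages and other leukocytes were also lower in BAT than in eWAT. Of 16 such markers tested, 9 were called lower and 0 higher, against 3.75% and 2.71% of all tested genes. Among the 9 was Itgam (-3.77 ± 0.63, edgeR adjusted p = 0.0313), which encodes an alpha chain partner of Itgb2. Itgad, another alpha chain partner of Itgb2, lay the other way, at 33.4 and 12.6 CPM in BAT, against 3.73 and 0.569 in eWAT and 30.8 and 11.8 in iWAT. Both its BAT libraries were above both eWAT libraries (3.37 ± 0.88, edgeR adjusted p = 0.0733), and Itgae overlapped between these depots. The 19 markers of the list in the table summed to 516 and 122 CPM in the BAT libraries, 5180 and 2350 in those of eWAT and 738 and 225 in those of iWAT. The T cell marker Cd3e was at 0 in every library, while Itgal was at 0 in both BAT libraries and Cd79a in both iWAT libraries. The 6 platelet markers summed to 6.55 and 6.5 CPM in BAT, against 48.9 and 58.9 in eWAT and 10.8 and 6.54 in iWAT, with Gp9 at 0 in every library. Pf4 alone held 45.4 and 53.8 CPM of the eWAT sums, and Gp1ba, the other platelet marker tested, overlapped between these depots (1.06 and 3.44 CPM in BAT, 0.932 and 2.84 in eWAT). In bulk libraries fewer cells of a type and less RNA per cell cannot be told apart, and the part of these cells in the Itgb2 and Itga4 values was not tested.

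**Figure D3:**
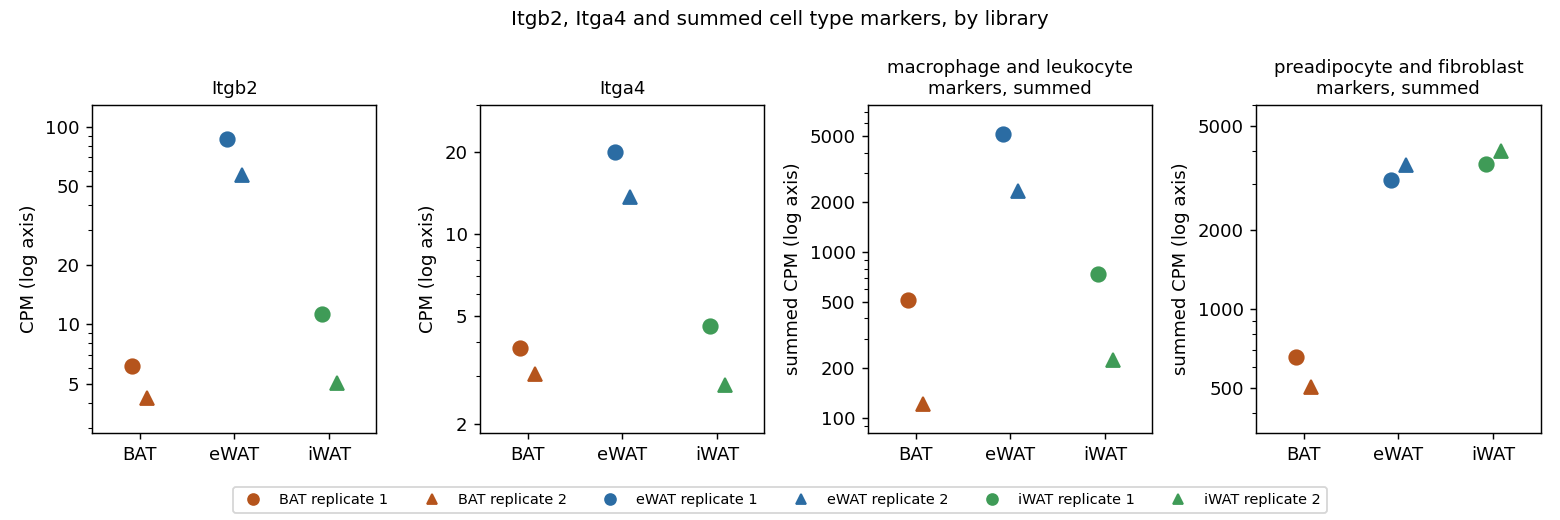
CPM of Itgb2 and Itga4 and the summed CPM of the leukocyte and the preadipocyte and fibroblast markers, each on a log axis, with 1 point per library and depots on the x axis. The eWAT libraries are highest for both integrins and for the leukocyte markers, whereas the fibroblast markers are low in BAT (656 and 503 CPM) and high in both white depots (3100 to 4020 CPM).

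Markers of preadipocytes and fibroblasts had a lower summed level in BAT than in both white depots, but not every marker followed. Of 9 tested, 4 were lower and 1 was higher in BAT than in eWAT (3.75% and 2.71% of all tested genes). Against iWAT 4 were lower in BAT (0.895% of all tested genes). Thy1 stood at 83.9 and 35.6 CPM in BAT, above eWAT at 17 and 15.4 and below iWAT at 132 and 139. Cd34 overlapped between BAT and eWAT (51.1 and 21.4 against 20.5 and 62.3 CPM). Dcn, at 136 and 159 CPM in BAT, held 1670 and 2110 CPM of the eWAT sums and 1590 and 1890 of the iWAT sums. Pdgfra, the receptor that marks fat cell precursors, averaged 264 ± 53.3 CPM (SD, n = 2) in BAT against 954 ± 2.3 in eWAT and 1460 ± 4.73 in iWAT. The list summed to 656 and 503 CPM in the BAT libraries, 3100 and 3560 in those of eWAT and 3590 and 4020 in those of iWAT. None of its 10 markers was at 0 in any depot, and the part of such cells in the laminin and Nid2 values was not tested. Endothelial markers, from cells that also make laminin, summed to 240 and 114 CPM in BAT, against 66.2 and 141 in eWAT and 203 and 211 in iWAT, and 0 of 10 passed in any contrast. Smooth muscle and pericyte markers summed to 351 to 1960 CPM in BAT, 646 to 1460 in eWAT and 425 to 1080 in iWAT, with 1 of 9 called, Pdgfrb (lower in BAT than in eWAT).

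**Figure D4:**
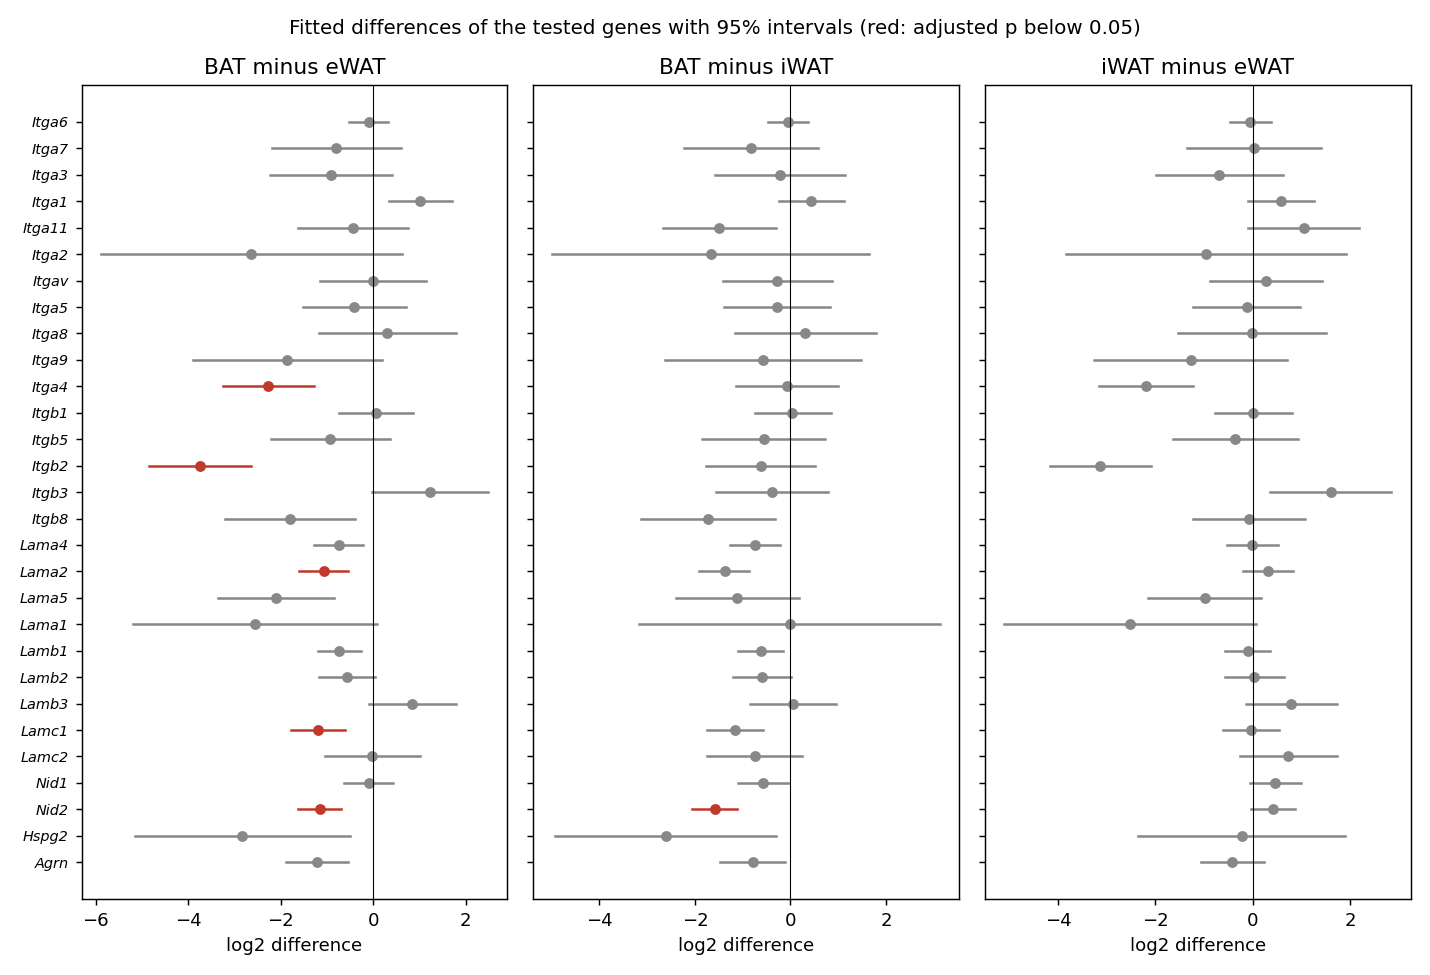
Log2 differences of the 29 tested genes in the 3 contrasts, with 95% intervals from the edgeR fit, and adjusted p below 0.05 in red. For BAT minus eWAT 24 of the 29 points lie below 0, with Itgb2 the lowest at -3.75, and for iWAT minus eWAT the points lie on both sides.

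Read against all genes, the 5 of 29 members called lower in BAT than in eWAT are 17.2%, and the 1 called lower than in iWAT is 3.45%. DESeq2 called 9 members lower and 1 higher for BAT minus eWAT, against 6.57% and 5.11% of all genes, and 3 lower and 0 higher for BAT minus iWAT, against 2.82% and 1.53%. At an unadjusted p below 0.05, edgeR had 11 members lower and 1 higher for BAT minus eWAT (13.4% and 12.5% of all genes) and 10 lower and 0 higher for BAT minus iWAT (8.75% and 7.88%). The median log2 difference of the tested members was -0.80 for BAT minus eWAT, where that over all tested genes was -0.03. It was -0.60 against -0.02 when BAT was set against iWAT, and -0.04 against 0.01 between the white depots. By sign alone, 24 members were lower and 5 higher in BAT than in eWAT, against 52.4% and 47.6% of all genes, and 25 were lower and 4 higher in BAT than in iWAT, against 51.3% and 48.7%. In iWAT 17 were lower and 12 higher than in eWAT, against 48.7% and 51.3% of all genes. With members split by kind, the medians for BAT minus eWAT were -0.62 for 16 integrins, -0.75 for 9 laminin chains and -1.19 for the nidogens, Hspg2 and Agrn. In 13 of 29 members both BAT libraries lay below both eWAT libraries, and in 3 (Itga1, Itgb3 and Lamb3) above, where 28.5% and 26.8% of all tested genes did so. Of the 13, 7 were among the 9 laminin chains and 3 among the 16 integrins. Against iWAT, 15 members lay below and 1 above, where 24.1% and 23.9% of all tested genes did so. The contrasts that share BAT libraries are not independent. Between iWAT and eWAT edgeR called 0 of 29 members and 0 of 11732 genes, 1 member was higher (Itgb3) and 2 lower (Itgb2 and Itga4) at an unadjusted p below 0.05, against 3.9% and 5.44% of all genes, and DESeq2 called 2 members lower and 0 higher, against 1.6% and 0.963% of all genes. Of the members, 7 lay with both iWAT libraries above both eWAT libraries and 5 below, against 19.2% and 18.8% of all genes.

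With 1 library left out, fewer genes of any kind were called in most fits, and most member calls were lost while the differences stayed of similar size. Without BAT replicate 2 or without eWAT replicate 1 no member was called for BAT minus eWAT, and without any 1 of the other 4 libraries only Itgb2 was. Over these 6 fits the difference ran from -4.08 to -3.42 for Itgb2, -2.51 to -1.96 for Itga4, -1.43 to -1 for Lamc1, -1.20 to -0.94 for Lama2 and -1.31 to -0.98 for Nid2, while the number of all genes called, 758 with every library, ran from 17 to 829. The median difference of the members was -0.49 without eWAT replicate 1. The call of Nid2 for BAT minus iWAT was lost without any 1 of the 4 BAT and iWAT libraries, with a difference from -1.69 to -1.47, and the number of all genes called then fell from 122 to between 0 and 17.

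The authors' deposited table of their own tests called more members. Of the 36 members, 18 had in the authors' deposited table an adjusted p below 0.05 and were lower in BAT than in eWAT, or 50%, against 9.05% of all 20295 genes listed there. Those 20295 include 8563 genes that failed the filter on low counts used here, whereas 7 of the 36 members failed it. Genes with low counts are harder to call, so shares from that table do not compare like with like. The same table had 2 members higher, Itga1 and Itgb3, or 5.56% against 6.58% of all genes. For BAT minus iWAT the authors' deposited table had 11 members lower and 0 higher (5.33% and 2.91% of all genes listed), and for iWAT minus eWAT 4 higher and 6 lower (11.1% and 16.7% against 3.25% and 5.27%). In the authors' deposited table Hspg2 had a log2 difference of -2.49 for BAT minus eWAT with an adjusted p of 4e-06, although its eWAT libraries stood at 328 and 73.1 CPM.

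Other genes of the same structures were read from fixed lists. Of 17 further basement membrane genes tested, 6 were lower in BAT than in eWAT and 0 higher, and 2 were lower than in iWAT (list medians -0.70 and -0.76). Over all tested genes 3.75% were called lower and 2.71% higher for BAT minus eWAT, and 0.895% lower for BAT minus iWAT. Col15a1, a collagen at the outer face of basement membranes, averaged 68.2 ± 2.56 CPM in the BAT libraries, 139 ± 3.63 in those of eWAT and 201 ± 26.3 in those of iWAT, with differences of -1.03 ± 0.17 (edgeR adjusted p = 0.0313) and -1.56 ± 0.17 (edgeR adjusted p = 0.0225). Fbln1, which encodes the matrix glycoprotein fibulin 1, was also lower in both contrasts (-2.05 ± 0.33 and -2.25 ± 0.33). Not all of the list lay in 1 direction. Col4a5, a type IV collagen chain, was lower in BAT than in eWAT (-0.81 ± 0.16, edgeR adjusted p = 0.0406), but its BAT libraries, at 101 and 107 CPM, were above those of iWAT, at 57 and 64.4 (0.78 ± 0.16, edgeR adjusted p = 0.102). Npnt, which encodes the integrin ligand nephronectin, had differences of 2.25 ± 1.20 and 2.65 ± 1.24 and was not called. Its libraries overlapped in both contrasts, with 17.1 and 2.29 CPM in BAT, against 3.49 and 0.569 in eWAT and 2.89 and 0.251 in iWAT. The main type IV collagen gene Col4a1 stood at 2220 and 1750 CPM in BAT, against 2930 and 2070 in eWAT and 3150 and 2640 in iWAT, and was not called.

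Of 19 other integrin ligands tested, 2 were lower in BAT in each contrast with it, against 3.75% (eWAT) and 0.895% (iWAT) of all tested genes. These were Vcam1 and Icam1. Vcam1, a cell surface ligand of the Itga4 chain, averaged 45.6 ± 3.94 CPM in the BAT libraries, 85 ± 3.26 in those of eWAT and 133 ± 9.76 in those of iWAT. Icam1, a ligand of the Itgb2 integrins, averaged 6.8 ± 2.04, 54.6 ± 0.8 and 42.6 ± 1.97 CPM. Fn1, the fibronectin gene, varied widely between libraries, at 148 and 137 CPM in BAT, against 1560 and 305 in eWAT and 1460 and 504 in iWAT. Of 23 adaptors of integrins tested, 1 was higher in BAT than in eWAT and 0 were lower, against 2.71% and 3.75% of all tested genes. The 1 was Lims2, which encodes a partner of the integrin-linked kinase (2.07 ± 0.22, edgeR adjusted p = 0.0149). None of 11 laminin receptors outside the integrin family, such as the dystroglycan gene Dag1, passed in any contrast.

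The integrins and the laminin chains also differed in how they varied between the libraries of a depot. For 11 of 16 tested integrins replicate 1 was above replicate 2 in all 3 depots (68.8%), where this held for 23.4% of all tested genes. These were Itga1, Itga2, Itga4, Itga5, Itga7, Itga9, Itga11, Itgav, Itgb1, Itgb2 and Itgb5. Of 9 laminin chains, Lama5 alone did so, and for Lama4, Lamb1, Lamb3 and Lamc1 replicate 2 was the higher library in every depot (44.4%, against 25.3% of all tested genes). Itga9, an alpha chain that binds tenascin C, is an example of the integrins with replicate 1 higher. It had 22.8 and 6.88 CPM in the BAT libraries, 91.6 and 20.2 in those of eWAT and 32.2 and 13.8 in those of iWAT. The labels do not say that a replicate number marks a shared preparation.

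**Figure D5:**
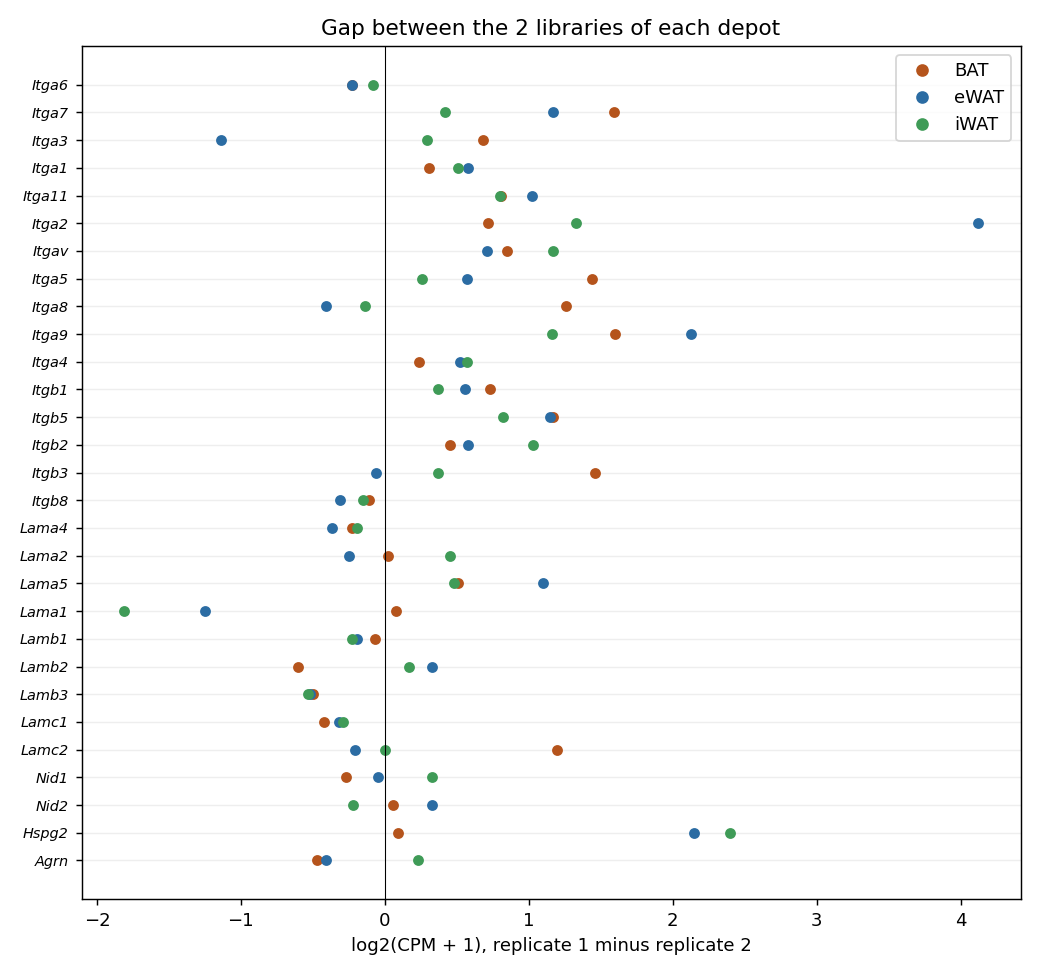
Gap between the 2 libraries of each depot, as log2(CPM + 1) of replicate 1 minus replicate 2, for the 29 tested genes with 1 point per depot. Most integrins lie to the right of 0 in all depots, while Lama4, Lamb1, Lamb3 and Lamc1 lie to the left.

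Some lists of other genes showed this order of the replicates and others did not. Replicate 1 was the higher library in all depots for 23.4% of all tested genes. This held for 18 of 23 integrin adaptors (78.3%), 11 of 19 integrin ligands (57.9%) and 15 of 16 leukocyte markers (93.8%). It also held for 5 of 17 basement membrane genes (29.4%), 1 of 9 preadipocyte and fibroblast markers (11.1%) and 0 of 10 endothelial markers. For 5 of 8 adipocyte markers replicate 2 was the higher library in all depots (62.5%, against 25.3% of all tested genes), and for 0 of 8 replicate 1. The integrin ligands summed to 8450 and 3370 CPM in BAT, against 12600 and 5800 in eWAT and 17900 and 7370 in iWAT. What set the replicates apart was not tested.

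In 7 members the counts were too low to be tested (Itga10, Itga2b, Itgb4, Itgb6, Itgb7, Lama3 and Lamc3), with 5 to 28 counts over all 6 libraries. Itga2b, the platelet alpha chain, had 2 to 12 counts per library. Itgb4, the hemidesmosome partner of Itga6 in epithelia, had 1 to 5 counts, and Itgb6, a chain of epithelia, had 0 counts in both iWAT libraries and 5 in the other 4 together. For Itgb7, a lymphocyte chain, 11 of 15 counts lay in eWAT. Lamc3 had 21 counts in eWAT replicate 2 and 1 or 2 in each other library. Itgb8 (2 to 10 counts) and Itga8 (4 to 24) passed the filter on few counts and were not called.

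In mm9, as the deposited table gives them, Lamc1 (NM_010683) lies on chromosome 1 from 155066051 to 155179916, Lama2 (NM_008481) on chromosome 10 from 26701091 to 27336748, and Nid2 (NM_008695) on chromosome 14 from 20570478 to 20631009. Itgb2 (NM_008404) lies on chromosome 10 from 76993092 to 77028419 and Itga4 (NM_010576) on chromosome 2 from 79095582 to 79173271. Itga4 overlaps the opposite-strand gene Cerkl by 624 bases, and Cerkl had at most 1.48 CPM.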

How the data were processed

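RNA sequencing counts of 6 libraries, 2 each from BAT, eWAT and iWAT adipocyte cultures, were analysed. Reads were aligned with STAR to mm9, per the submitters' processing notes. Library preparation used ribosomal RNA depletion and a TruSeq kit, per the labels' protocols. How reads were counted, with or without strand and with what treatment of multiple matches, is not given in the sources used here. Values are whole-number counts per RefSeq gene that the authors deposited with no normalization, per the file headers. A second table deposited by the authors gives log2 fold changes and p-values of the 3 contrasts, used here for comparison only. The deposited counted length of each gene, a column of the count table, gave RPKM.

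The filter on low counts (filterByExpr) kept 11732 genes and 29 members. CPM used trimmed-mean factors. The test was the two-sided edgeR 4.0.16 quasi-likelihood F test (R 4.3.3) on 1 fit of all 6 libraries with depot as the only term, Benjamini-Hochberg adjustment over all tested genes, and a threshold of 0.05. Standard errors are the absolute log2 difference over the square root of F, and 95% intervals use 6.34 degrees of freedom. The fit was tested on simulated data. DESeq2 1.42.0, limma 3.58.1 (voom) and other alternatives were run. Motifs were searched in RefSeq promoter windows. By rule, values in every library are given for called members and for at most 2 members per role with the highest mean RPKM, and at most 4 called genes per pathway list and contrast are named, by smallest adjusted p. Other genes (among them Hspg2, Agrn, Itga1, Itgb3, Col4a1, Fn1, Pdgfra, Thy1, Cd34, Dcn, Itgam, Itgad, Npnt, Pf4 and Gp1ba) were named after their values were seen. The members and lists were chosen with earlier results of these data known.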

Additional observations from a re-analysis of the deposited data

How the results depend on the processing

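With no factors, DESeq2-type size factors, the stricter filter (at least 10 counts in 2 libraries) or limma voom, 4 to 6 members were called for BAT minus eWAT. For that contrast 14 were called with no filter, 10 by DESeq2 and 13 with the replicate block, each with 1 higher in BAT. The authors' deposited table (an alternative chosen after seeing the data) had 20, with 2 higher in BAT. With only the libraries of these 2 depots in the fit 1 member was called, Itgb2. With 1 library left out the number ran from 0 to 1. For BAT minus iWAT 2 were called with no factors, 5 with no filter, 3 by DESeq2, 8 with the replicate block and 11 in the authors' deposited table, and leaving out a library gave from 0 to 1. For iWAT minus eWAT 3 were called with no filter, 2 by DESeq2, 4 with the replicate block and 10 in the authors' deposited table, and 0 with any library left out. A library left alone in its depot was assumed to vary like the others. The number of all genes called changed too. It is given here as reported, with no filter, by DESeq2, with the replicate block and in the authors' deposited table. For BAT minus eWAT it was 758, 1937, 1370, 2780 and 3172. It was 156 with only the libraries of these 2 depots in the fit. With no factors, DESeq2-type size factors, the stricter filter or limma voom it ran from 556 to 826. For BAT minus iWAT it was 122, 780, 510, 1225 and 1672, and 136 with no factors. For iWAT minus eWAT it was 0, 557, 301, 563 and 1730. The cause of these changes was not tested.

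The same replicate numbers occur in each depot, but no label says that they mark a shared animal or day. Across 11732 genes the gaps between replicate 1 and replicate 2 correlated between depots (0.425 for BAT and eWAT, 0.457 for BAT and iWAT, 0.57 for eWAT and iWAT), and with 2 numbers a contrast has only 2 pairs. The replicate block raised the number of all genes called from 758 to 2780 for BAT minus eWAT, from 122 to 1225 for BAT minus iWAT and from 0 to 563 for iWAT minus eWAT. The members called with it beyond those reported were Agrn, Hspg2, Itga1, Itga9, Itgb5, Lama4, Lama5 and Lamb1 for BAT minus eWAT, Hspg2, Itga11, Itgb5, Lama2, Lama4, Lamb1 and Lamc1 for BAT minus iWAT, and Itga4, Itga9, Itga11 and Itgb2 for iWAT minus eWAT.

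Of 25 member and contrast pairs with an unadjusted p below 0.05, none changed direction under the 14 alternatives (13 for Itgb8). These pairs were picked by their p in the same data, and the libraries of the 2 depots did not overlap in any of them. A change of direction was therefore unlikely from the outset, and its absence says little. With no factors the median of all genes for BAT minus eWAT moved to -0.18 and that of the members to -0.93. Members with few counts limit what can be seen, since a count of 3 equals up to 1.15 CPM.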
